A study of Mus musculus with 2 samples.

Results

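The genes described here encode the enzymes that attach a water-soluble group to drugs, hormones and metabolites or cleave their ester bonds, and the question was where H3K9me3, a histone methylation found in repressed chromatin, lies over them in intestinal stem cells. Members were taken by symbol alone from the protein-coding genes of chromosomes 1 to 19. They are the UDP-glucuronosyltransferases (Ugt), carboxylesterases (Ces), glutathione S-transferases of the alpha, kappa, mu, omega, pi and theta classes (Gst) and cytosolic sulfotransferases (Sult). In all, 82 of 20661 genes were members, with 21 Ugt, 19 Ces, 21 Gst and 21 Sult genes. The symbol rule left out Ugt8a, Gstz1 and Gstcd and 4 pseudogenes of these families.

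The ChIP library was made with an antibody against H3K9me3, and the control library carries the word input in its title and IgG in its antibody label. Both came from stem cells sorted as GFP high and CD24 low. The animals, 12 as stated, had the genotype Lgr5-EGFP-IRES-creERT2;setdb1fl/fl on strain C57BL/6 and were 8 weeks old. Lgr5 drives both the fluorescent protein and the inducible Cre, so the sort selects Lgr5-expressing crypt cells. The labels do not say whether Cre had been induced, so whether Setdb1, which encodes an H3K9 methyltransferase, was intact or deleted is not known. With 1 library in each group there was no replicate and no test between libraries, and intervals cover counting error alone.

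In intestinal epithelium these enzymes limit how much of a swallowed compound reaches the blood. Ugt enzymes transfer glucuronic acid, Sult enzymes transfer sulfate from PAPS, Gst enzymes add glutathione to reactive molecules and Ces enzymes hydrolyse esters and amides. Their genes arose largely by tandem duplication and sit side by side in clusters, so that 1 peak can touch several of them. H3K9me3 is known for covering repeats, silenced gene clusters and imprinted loci, and is often low over genes in use. A ChIP peak gives no RNA level, so nothing here says which members these cells transcribed, and the cell type named in the labels could not be checked by expression. A peak lay in or within 5 kb of 6 of 8 crypt stem cell markers, with 62.2% for all genes weighted to the same lengths. The counts were 4 of 7 enterocyte markers (all genes 47.5%), 4 of 7 secretory markers (55.2%), 1 of 5 immune markers (54.8%) and 3 of 4 markers of mesenchyme and endothelium (63.7%). With so few genes in a list, no difference from all genes is read from these counts.

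The deposited list held 40119 peaks, of which 37904 lay on the autosomes. Heights are given as the authors' normalized tag count, in which 1 tag was worth 1.05, and the median peak rested on 16.5 ChIP tags (exact Poisson 95% interval 9.52 to 26.6). A peak is called strong when its normalized tag count was at least 50.8, the top 10% of the list. A gene is called marked when a peak shared at least 1 base with its span or with the 5 kb on either side. Positions are on GRCm38 (mm10).

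Fewer members were marked than genes at large. Marked members numbered 33 of 82 (40.2%, exact Clopper-Pearson 95% interval 29.6 to 51.7%), and 56.5% of all 20661 genes were marked. With each length class of all genes weighted as the members' lengths are distributed, the share of all genes was 57.4%. The interval treats genes as independent, and neighbours that shared peaks were not. The median member had 0 peaks and the median gene had 1. The 49 members without a peak lay a median of 25303 bp from the nearest one, and unmarked genes at large lay 26982.5 bp away. When peaks had to touch the gene itself, 21 members (25.6%) and 47.3% of all genes were marked. With the first member by position taken from each cluster or lone gene, 8 of 26 (30.8%) were marked. That choice of member is arbitrary, and 13 of the 26 (50%) had a marked member at any position. A locus of several genes has more chance of a peak than 1 gene.

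By gene length, the gap to all genes lay in the middle classes. Members of 10 to 20 kb were marked in 6 of 25 cases (24.0%), and 56.9% of all genes of that length were. Members of 20 to 40 kb were marked in 7 of 26 cases (26.9%), beside 57.7% of all genes. These classes held all but Ugt2b1 of the neighbouring Ugt2 and Sult1 genes on chromosome 5, none of them marked. Their members are therefore not independent. Shorter members were marked in 6 of 13 cases at 5 to 10 kb (46.2%, all genes 53.9%) and in 3 of 6 cases under 5 kb (50.0%, all genes 37.3%). The longest class went the other way, with 11 of 12 members of 40 kb or more marked and 72% of all genes. That class held 7 of the Ugt1a genes, which overlap one another, and 4 of its 5 other members were marked.

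**Figure D1:**
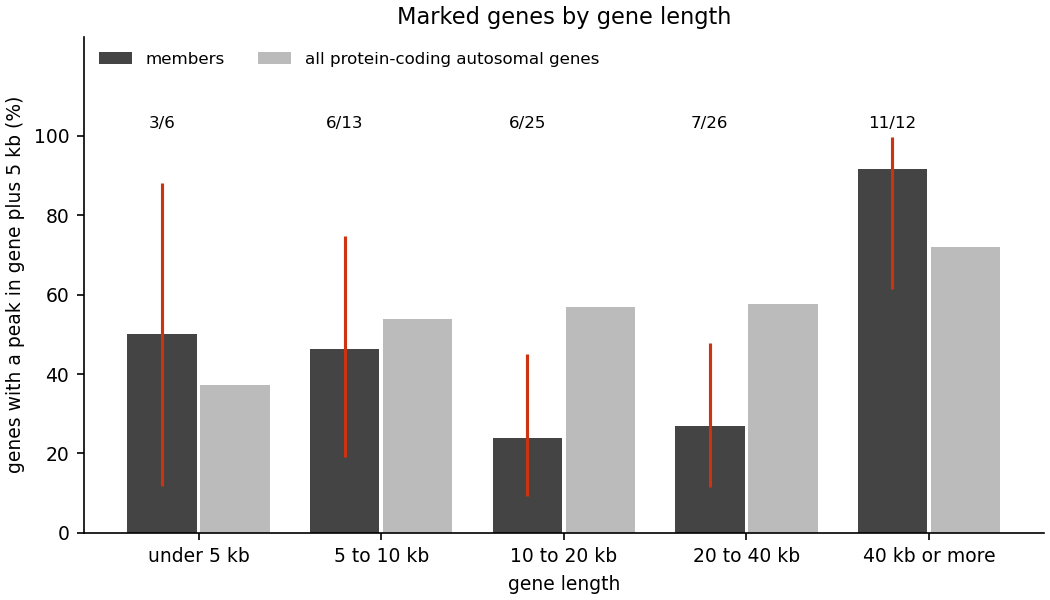
Share of genes with an H3K9me3 peak in the gene or within 5 kb (%), by gene length, for the members (dark bars, with exact 95% intervals as lines and counts above) and for all protein-coding autosomal genes (light bars). The dark bars at 10 to 20 kb and 20 to 40 kb stand at 24.0% and 26.9%, against light bars of 56.9% and 57.7%.

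Marked genes made up 10 of 21 Ugt genes (47.6%), 6 of 19 Ces genes (31.6%), 9 of 21 Gst genes (42.9%) and 8 of 21 Sult genes (38.1%). Length-weighted shares of all genes were 61.8% for Ugt, 56.6% for Ces, 50.4% for Gst and 60.9% for Sult. The order of the families depended on how peaks were assigned. With each peak given to its nearest coding gene, marked genes numbered 3 for Ugt, 6 for Ces, 7 for Gst and 6 for Sult. Peaks touching the gene itself marked 9 Ugt, 3 Ces, 5 Gst and 4 Sult genes. Flanks of 10 kb marked 13 Sult genes, and peaks scoring at or above the median left 3 Ces genes. Within families, subfamilies often stood at one extreme. All 9 Ugt1a (length-weighted share of all genes 68.3%), all 4 Gstt (54.6%) and all 3 Gstp genes (37.3%) were marked. None of the 7 Ugt2b (56.6%), 3 Ugt2a (57.4%) and 4 Gsta genes (57.1%) was. With so few genes the exact intervals were wide, and all but that of Ugt2b (0 to 41%) took in the share of all genes. Most genes of these groups lie close to others of their own group, and some share peaks, so their values are not independent.

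**Figure D2:**
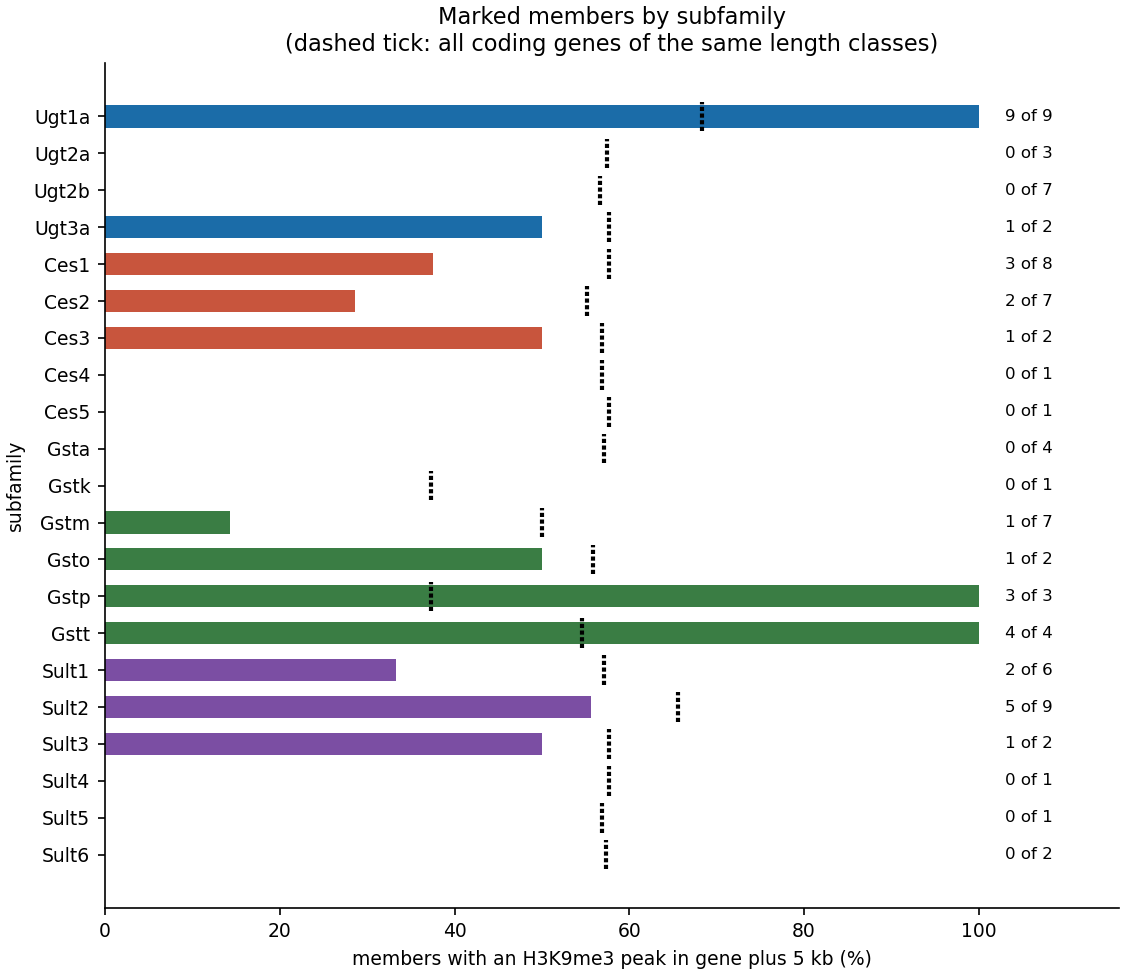
Marked members of each subfamily (%), with counts at the right. The dashed tick gives the share of all protein-coding autosomal genes weighted by the members' length classes. Ugt1a, Gstp and Gstt reach 100%, and Ugt2a, Ugt2b and Gsta stand at 0 beside ticks of 57.4%, 56.6% and 57.1%.

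The 33 marked members shared 33 distinct peaks, which made 57 pairs of gene and peak. Of the peaks, 27 touched the window of 1 member and 6 those of at least 2, up to 9 members for 1 peak. The median normalized tag count of the 33 peaks was 18.9 (18 tags), and that of the 20978 peaks at any coding gene was 16.2. Strong peaks made up 3 of the 33 (9.09%) and 6.53% of the peaks at any coding gene. Their median width was 760 bp, and 7 were exactly 500 bp wide. Scaled to the control library, the ChIP tags had a median of 12.3 per peak and the control a median of 1. The authors' fold over control ranged from 4.11 to 53.4 with a median of 13.0. In 13 of the 33 peaks (39.4%) the control stood at its lowest deposited value, 0.5 tag, and a fold there depends on that value. The share at that floor was 44.7% over the peaks of all coding genes.

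**Figure D3:**
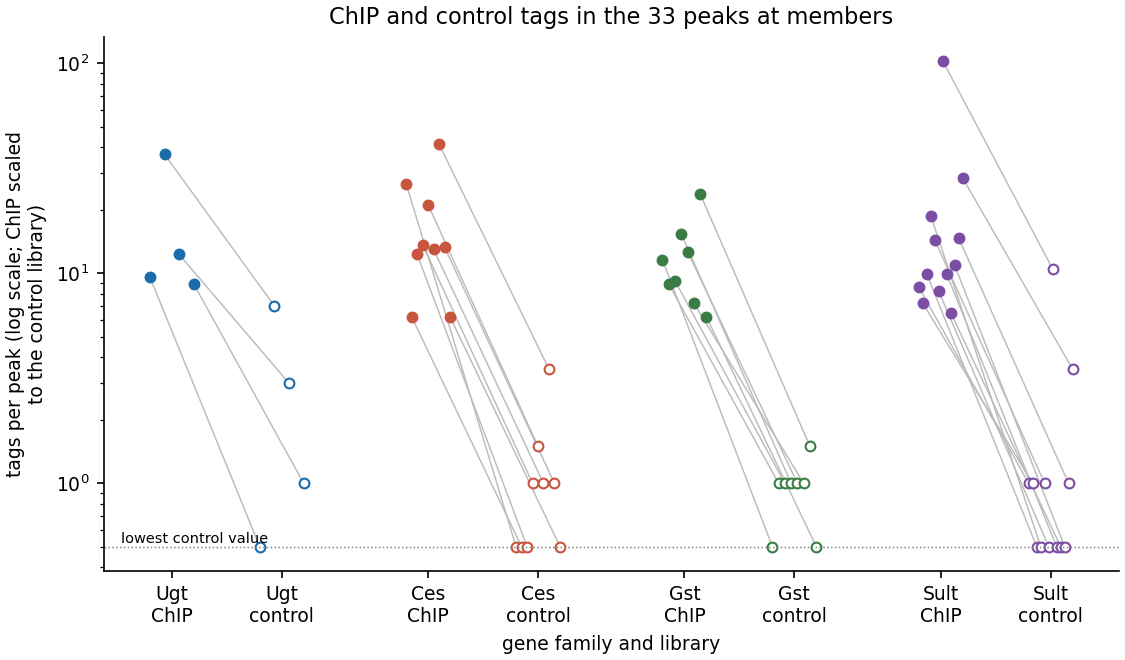
Tags in each of the 33 peaks, as ChIP tags scaled to the control library (filled points) and control tags (open points, joined to the same peak), by family on a log scale. ChIP values run from 6.2 to 102.6, and 13 control values lie on the dotted line at 0.5 tag.

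In the Ugt family, the Ugt1a complex on chromosome 1 carried 3 peaks, and most of the marked Ugt genes were counted through them. Ugt1a genes each have a first exon of their own and share the exons at the far end, so the spans nest and end at or near the same base. Ugt1a10, Ugt1a9, Ugt1a8, Ugt1a7c, Ugt1a6b, Ugt1a6a and Ugt1a5 counted all 3 peaks. Ugt1a2 counted 2, and Ugt1a1, whose product conjugates bilirubin, counted 1. The tallest peak (88204909 to 88206121) held 56.6 normalized tags, or 54 tags (40.6 to 70.5), with 36.9 scaled ChIP tags and 7 control tags, a fold of 5.28. It was strong, lay 4904 bp past the start of Ugt1a2 and overlapped Dnajb3, a testis-expressed co-chaperone gene inside the complex. The peak inside the 7 longer genes (88171489 to 88172325) held 14.7 normalized tags at a fold of 19.2, with the control at 0.5 tag. The last (88223190 to 88223690) lay beyond the common end, within 5 kb of Mroh2a, and held 18.9 normalized tags with 3 control tags, at a fold of 4.11. It is the peak through which Ugt1a1 counted as marked, and the fold is close to the lowest in the list, 4.

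No peak lay over a Ugt1a promoter. None of the 8 Ugt1a promoter windows of the RefSeq table was touched by a peak. Ugt windows held 0 to 4 CpG, and 2.52% of all genes' windows with so few CpG had a peak, so none of 8 is no departure from all genes. The 3 peaks covered 1.46% of the complex with its flanks, against 1.4% of the autosomes. Peak density there was 1.72 per 100 kb, and that of the autosomes was 1.54. The complex supplied 8 of the 10 members with a strong peak. The share of members with a strong peak was 12.2%, beside 6.64% of all genes. Outside Ugt1a it was 2 of 73 members (2.74%), and 24 of those 73 (32.9%) were marked. Among peaks of at least 8-fold over control, and likewise when each peak was given to its nearest coding gene alone, 2 members had a strong peak.

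On chromosome 5 no Ugt2 gene was marked. Ugt2b enzymes conjugate steroids and bile acids, and Ugt2a1 is known from the olfactory epithelium. Ugt2b34, Ugt2b1, Ugt2b35, Ugt2b36, Ugt2b5, Ugt2b37, Ugt2a3, Ugt2b38, Ugt2a1 and Ugt2a2 run over 86889770 to 87490871, and the sulfotransferase genes Sult1b1, Sult1d1 and Sult1e1 follow up to 87591611 with no peak in their windows either. Sult1e1 encodes the estrogen sulfotransferase. The stretch as such was not bare. It held 10 peaks, and each of them lay between the windows of the 13 members, which made up 45.7% of its length. That is 2.59 peaks per 100 kb between the windows and 0 inside them. The tallest, of 39.3 normalized tags (37.5 tags, 1 control tag, 25.7-fold), lay at 87545312 to 87546526, between Sult1b1 and Sult1d1 and 7117 bp from the nearer one. The others ranged from 9.43 to 35.6 normalized tags. Ugt2b38 lay farthest from any peak of the Ugt2 genes, at 98269 bp. The absence of marked genes here depends on the flank of 5 kb. The nearest peaks lay 7048 bp from Ugt2b34, 7117 bp from Sult1b1 and 8124 bp from Sult1d1, so a flank of 10 kb would mark these genes.

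The remaining Ugt pair, on chromosome 15, was split. Ugt3a enzymes use other sugars than glucuronic acid, as known for the human proteins. Ugt3a2 held 1 peak of 13.6 normalized tags inside the gene (9356564 to 9357189, 8.89-fold), and Ugt3a1 had none, the nearest being 11252 bp away.

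Among the carboxylesterases, marked genes were scattered among unmarked ones. In the Ces1 cluster on chromosome 8 (93020214 to 93379777), 3 of 8 genes were marked by 4 peaks, none strong and none shared. The length-weighted share of all genes was 57.7%, within the exact interval for Ces1 of 8.52 to 75.5%. Ces1c, which encodes an esterase of the blood plasma, held 1 peak of 40.9 normalized tags, or 39 tags (27.7 to 53.3), at 93116807 to 93118049. Its fold of 53.4 was the highest at any member and rested on 0.5 control tag. Ces1e had a peak of 9.43 normalized tags, the lowest value in the list. Ces1g had 2 peaks of 18.9 and 21.0 normalized tags, both outside the gene, in the flank before and after it. Ces1a, Ces1b, Ces1d, Ces1f and Ces1h, and Ces5a farther along, had none. Ces1d encodes a triglyceride hydrolase of liver and fat.

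The Ces2 to Ces4 cluster, also on chromosome 8 (104734003 to 105150109), held more of the mark. Ces2 enzymes are the main carboxylesterases of the intestine. Here 11 peaks, 2 of them strong, made 2.58 peaks per 100 kb and covered 2.45% of the cluster. Of its 10 genes 3 were marked, and 6 of the peaks lay between windows. Length-weighted shares of all genes were 55.2% for Ces2 and 56.9% for Ces3 and Ces4, each within the exact interval of its subfamily. Ces2h had 3 peaks, all inside the gene, the first of them within 5 kb of Gm5743. The tallest (105005886 to 105007446) was strong, with 62.9 normalized tags or 60 tags (45.8 to 77.2) and 3.5 control tags at 11.7-fold. The others at Ces2h held 19.9 and 20.4 normalized tags. Ces2b had 1 peak in its flank with 32.5 normalized tags, and Ces3b had 1 of 9.43 in its flank. Ces2a, Ces2c, Ces2e, Ces2f, Ces2g, Ces3a and Ces4a had none. The other strong peak (104863729 to 104864793, 57.6 normalized tags, 12.5-fold) lay 2631 bp from the pseudogene Ces2d-ps, which the symbol rule leaves out, and inside the lncRNA gene Gm33218. A pair of peaks of 40.3 and 38.2 normalized tags lay in the pseudogene Gm6831, and 1 of 48.2 lay in the lncRNA gene Gm33141.

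The glutathione transferases are given by class, and in each class the exact interval took in the length-weighted share of all genes. All 4 theta genes on chromosome 10 were marked through 3 peaks of 13.6 to 23.6 normalized tags, of which 2 were shared. The peak at 75780569 to 75781200 lay in Gstt3, with its centre 529 bp past the start, and reached Gstt1 by the flank alone. The peak at 75827372 to 75828132 lay between Gstt4 and Gstt2 and touched neither gene. Gstt2 also had a peak of 23.6 normalized tags inside the gene at 15.4-fold, the tallest of the class.

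All 3 pi genes on chromosome 19 were marked too, by 3 peaks in a cluster of 24.2 kb. Gstp1 is the main pi class gene of the mouse, and its human counterpart is known for silencing by DNA methylation in human prostate cancer. Gstp3 held the tallest of these peaks, with 36.7 normalized tags or 35 tags (24.4 to 48.7) and 1.5 control tags at 16-fold, at 4057031 to 4058269. The peak over the start of Gstp2 (4041723 to 4042223) had 11 normalized tags at 7.18-fold and counted for Gstp1 by the flank. Gstp1 had 1 further peak, of 19.4 normalized tags, beyond its far end. The area was dense in genes and in peaks alike, with a median of 34 coding genes and 34 peaks within 250 kb of the middle of a pi gene, beside medians of 9 genes and 10 peaks for all genes.

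Of the 7 mu genes on chromosome 3, Gstm7 alone was marked, by a peak of 17.8 normalized tags in its flank. The length-weighted share of all genes was 50%, within the exact interval for mu genes of 0.361 to 57.9%. Gstm5, Gstm6, Gstm3, Gstm2, Gstm1 and Gstm4 had none. A median of 14 peaks and 17 coding genes lay within 250 kb of a mu gene. Mu class enzymes conjugate epoxides and quinones. The alpha genes Gsta4, Gsta1 and Gsta2 on chromosome 9 and Gsta3 on chromosome 1 had none, with a median of 4 peaks and 15.5 coding genes within 250 kb. Gsta4 acts on 4-hydroxynonenal, a product of lipid peroxidation. Of the omega pair on chromosome 19, Gsto1, a dehydroascorbate reductase, had 1 peak of 9.43 normalized tags within 5 kb of Gm30021, and Gsto2 had none. The kappa gene Gstk1 on chromosome 6 had none within 71118 bp.

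The tallest peak at any member lay in a sulfotransferase gene. Sult2a3 on chromosome 7 held a peak of 157.1 normalized tags (14086154 to 14088811), which is 150 tags with an exact interval of 127 to 176. Scaled to the control, it had 102.6 ChIP tags and 10.5 control tags, a fold of 9.77 as the authors give it. It was 2657 bp wide, and its centre lay 35565 bp inside the gene. Sult2a enzymes sulfate bile acids and hydroxysteroids and are known chiefly from liver. Of the 33 peaks this was the one that stayed strong at the top 5% of the list. A second peak in Sult2a3 held 12.6 normalized tags.

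Peaks at the neighbouring genes were lower. In the cluster from Sult2a5 to Sult2a6 (13623967 to 14254870), 4 of 6 genes were marked by 7 peaks, and 7 more peaks lay between windows. Of all 9 Sult2 genes 5 were marked (55.6%), with a length-weighted share of all genes of 65.6%. Sult2a2 had 3 peaks of 11, 15.2 and 28.8 normalized tags, the last at 37.6-fold over a control of 0.5 tag. Sult2a4 had 1 of 22 over its promoter, and Sult2a5 had 1 of 13.1 before its start. Sult2a1 and Sult2a6 had none, and neither had Sult2a8 and Sult2a7, whose stretch of 82.3 kb (14410686 to 14493023) held no peak at all. Between Sult2a3 and Sult2a6 lay a peak of 43.5 normalized tags (14170283 to 14171478), the tallest of those outside the windows here.

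The other sulfotransferase genes were mostly single loci. Sult1c1 on chromosome 17 held a peak of 43.5 normalized tags inside the gene (53983621 to 53985262, 41.5 tags, 3.5 control tags, 8.11-fold), and its relative Sult1c2 on the same chromosome had none. Sult1a1, the main phenol sulfotransferase, had 1 peak of 16.8 normalized tags in its flank, which lay in the repair gene Slx1b and within 5 kb of Bola2 and Gm6939. Sult2b1, which sulfates cholesterol and related sterols, had a peak of 15.2 in Fam83e, close to Spaca4, and a peak of 9.95 over an internal start, which also overlapped Gm31597. Sult3a1 on chromosome 10 had 1 of 22.5 in its flank, and Sult3a2 had none, while 3 peaks of 14.7 to 25.7 lay between them. Sult4a1, a brain-enriched member of the family, Sult5a1, Sult6b1 and Sult6b2 had none, and Sult6b2 was 123103 bp from the nearest peak.

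Inside the clusters, peak density was higher between the members than over them, a difference that was not tested. With members of 1 family joined when at most 100 kb apart, the 82 genes formed 26 loci, of which 15 were clusters holding 71 genes. A marked member was found in 13 of the 26 loci (50.0%), and 10 of the 15 clusters and 3 of the 11 lone genes had one. Of all genes, 56.5% were marked. A cluster holds several genes and so has more chance of a peak, and no like share over all genes was computed for clusters. Over all clusters, the members' windows held 1.49 peaks per 100 kb (29 peaks) and the bases between them 2.35 per 100 kb (25 peaks). Over the autosomes the order was the reverse, with 1.87 per 100 kb in the windows of coding genes and 1.27 between them. The measures are not alike, since the latter leaves out the windows of every coding gene and the former those of members alone. A peak that reached into a window by 1 base counted as inside it, which favours the windows. The split also depends on the flank of 5 kb, since peaks between windows lay as near as 6167 bp to a member, Sult2a3. Densities were not computed with another flank. The order held without the chromosome 5 clusters, at 1.79 in windows and 2.31 between. Of the 13 clusters with bases between windows, 8 were denser between them, 4 were denser in the windows and 1 held no peak. Of the 25 peaks between windows, 7 overlapped an annotated gene, and these were pseudogenes and lncRNA genes.

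**Figure D4:**
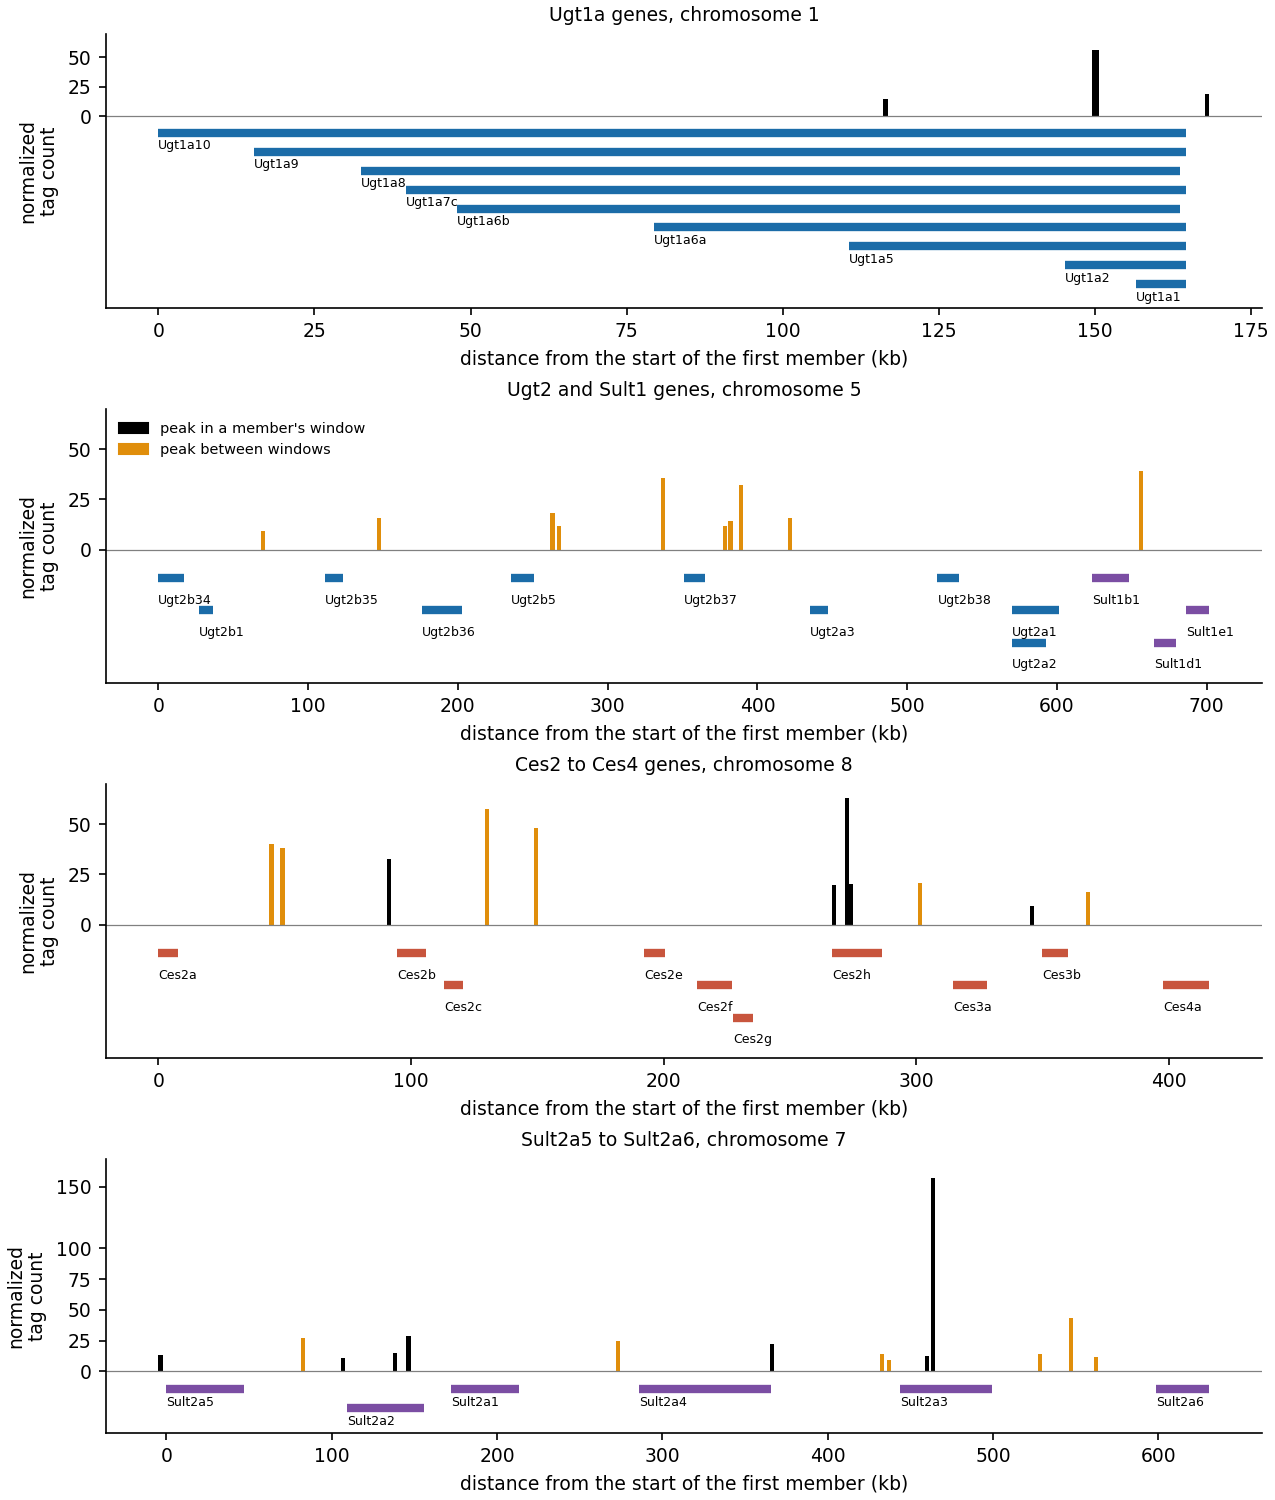
H3K9me3 peaks (bars, height in normalized tag count, top of each panel) and member genes (coloured lines, each over its own span) in 4 stretches, against the distance from the start of the first member (kb). Black bars are peaks in a member's window and orange bars lie between windows. All 10 bars of the chromosome 5 panel are orange, and the tallest bar, 157.1 in the chromosome 7 panel, lies in Sult2a3.

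Few members had a peak at the promoter. The RefSeq table gave promoter windows, from 250 bases before to 50 after the start, for 70 members. In 3 of these 70 genes (4.29%, exact interval 0.893 to 12.0%) a peak touched a window, beside 17.8% of the 16456 genes with a window. Members' promoters were poor in CpG, with a median of 3 per 300 bases and 14 for all genes, and the share with a peak varied with CpG. It was 2.52% over all windows with 0 to 4 CpG, 14.9% with 5 to 9, 27.4% with 10 to 19 and 20.7% with 20 or more. Members' windows fell mostly in the first of these classes, with 58 of 81, of which 1 had a peak. With the members' CpG classes applied to all genes the share was 7.63%, beside 3 of 81 windows of members. That share lies within the interval of 0.893 to 12.0%, although the interval counts genes and the share counts windows. With CpG content taken into account, no departure from all genes is read from these counts. By family the median CpG was 2 for Ugt, 2 for Ces, 8 for Gst and 1.5 for Sult.

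The promoters with a peak are shown from the RefSeq table of GRCm38.p6, on the gene's own strand and 5′ to 3′, to let the covered bases be read. Capitals mark bases inside the deposited peak. Sult2a4 (chr7:13989539-13989838, minus strand) was covered over 115 bases at the upstream end. Gstp2 (chr19:4042172-4042471, minus strand) was covered over the 52 bases at the downstream end, which include its start. The internal start of Sult2b1 (chr7:45742429-45742728, minus strand) lay wholly within its peak, which held 9.5 tags (4.45 to 17.7), near the lowest count in the list, 9. Gstp1 (chr19:4037863-4038162, minus strand) had no peak over its window. It was added after its values were seen, for comparison with Gstp2, whose promoter was 82.0% identical to it.
Sult2a4: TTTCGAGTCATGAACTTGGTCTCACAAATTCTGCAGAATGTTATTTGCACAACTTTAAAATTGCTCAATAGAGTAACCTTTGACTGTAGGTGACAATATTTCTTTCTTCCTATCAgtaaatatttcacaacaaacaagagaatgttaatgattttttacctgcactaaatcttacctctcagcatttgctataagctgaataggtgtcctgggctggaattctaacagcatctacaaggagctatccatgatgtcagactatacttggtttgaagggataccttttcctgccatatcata
Gstp2: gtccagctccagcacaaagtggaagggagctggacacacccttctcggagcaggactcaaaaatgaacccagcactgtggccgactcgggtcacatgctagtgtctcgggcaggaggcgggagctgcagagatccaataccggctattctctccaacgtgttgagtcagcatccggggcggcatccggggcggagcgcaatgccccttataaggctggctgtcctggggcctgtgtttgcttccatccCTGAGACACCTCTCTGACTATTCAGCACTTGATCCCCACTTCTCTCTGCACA
Sult2b1: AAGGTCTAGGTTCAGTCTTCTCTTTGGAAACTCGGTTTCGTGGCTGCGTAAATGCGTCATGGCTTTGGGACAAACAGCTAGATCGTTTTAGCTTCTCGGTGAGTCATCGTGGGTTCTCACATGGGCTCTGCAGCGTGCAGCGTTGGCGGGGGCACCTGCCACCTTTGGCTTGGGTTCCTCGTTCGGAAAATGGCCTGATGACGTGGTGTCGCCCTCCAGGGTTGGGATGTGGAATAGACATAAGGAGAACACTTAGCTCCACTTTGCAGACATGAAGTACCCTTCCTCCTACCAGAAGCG
Gstp1: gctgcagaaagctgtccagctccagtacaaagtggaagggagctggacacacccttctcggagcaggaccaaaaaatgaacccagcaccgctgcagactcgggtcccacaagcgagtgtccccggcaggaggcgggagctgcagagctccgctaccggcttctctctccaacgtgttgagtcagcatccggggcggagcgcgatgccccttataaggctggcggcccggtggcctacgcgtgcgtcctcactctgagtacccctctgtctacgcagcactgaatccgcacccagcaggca

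These windows differed in base content. Sult2a4 held 1 CpG at 36% GC, Gstp2 held 12 at 58.3%, Sult2b1 held 15 at 53.3% and Gstp1 held 20 at 62.7%. Motifs were searched on both strands, and 1 stretch could match more than 1 motif. The core bound by the Ahr receptor, GCGTG, was in 17.3% of the members' windows and in 39.2% of all windows. It was found at Sult2b1, starting 118 bases before the start, and at Gstp1, starting 13 bases before it. The core bound by Nfe2l2 was searched in the form TGACNNNGC alone. That form was in 3.70% of the members' windows and in 13.1% of all, with no match in the 4 promoters shown. Gstp1 and Gstp2 both hold TGAGTCAGC, which has G in place of that C and was not counted. The absence of a match therefore does not show that an Nfe2l2 site is lacking. TATAAA was in 22.2% of the members' windows and in 12.7% of all. GCGTG holds a CpG, so its frequency is tied to CpG content. Median GC content was 46.3% in the members' windows and 57% in all windows, and no motif frequency was adjusted for base content.

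Copies in these families resemble one another, and how reads that fit several places were treated is not given in the sources used here. Of the 70 members with a promoter window, 60 shared no stretch of 36 bases with the promoter of another gene. The rest shared 1.13 to 66.0% of their 36-base stretches. These were Gsta1 (66.0%), Gsto1 (45.7%), Ugt2b37 (37.7%), Ugt2b38 (34.0%), Ugt2b5 (14.0%), Ces1b and Ces1c (10.6% each), Gstp1 and Gstp2 (3.02% each) and Gsta2 (1.13%). Values for these genes are therefore uncertain, and the part this played in the absence of peaks at Ugt2b and Gsta genes was not tested. Only promoters were compared, since the gene bodies were not read here.

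Other genes of the same pathways, set beside the members for scale, were marked in 30 of 59 cases (50.8%, interval 37.5 to 64.1%), with a length-weighted share of all genes of 61.3%. Cytochrome P450 genes, which oxidise many of the same compounds, were marked in 41 of 98 cases (41.8%, interval 31.9 to 52.2%) beside the members' 40.2%. Their length-weighted share of all genes was 57.3%, so a marked share below that of all genes was not particular to the members. A strong peak was found at 7 P450 genes (7.14%, length-weighted share of all genes 5.93%). The differences between these lists were not tested. By role, regulators were marked in 9 of 12 cases (75%, length-weighted share of all genes 62.5%) and efflux transporters in 5 of 7 (71.4%, all genes 72.0%). Glutathione synthesis and recycling genes were marked in 3 of 7 cases (42.9%, all genes 56.0%), and hydrolases and reductases in 6 of 14 (42.9%, all genes 59.7%). The supply of UDP-glucuronate and PAPS was marked in 2 of 4 cases (50.0%, all genes 68.4%). Methyl, acetyl and acyl transferases were marked in 3 of 9 cases (33.3%, all genes 54.1%) and other glutathione transferases in 2 of 6 (33.3%, all genes 62.2%). For each list by role, the length-weighted share lay within the exact interval.

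Among these, Rxra, the shared partner of nuclear receptors, had 13 peaks, none above 19.9 normalized tags. The exporter gene Abcc4 had 8, Ppara had 6, and Cdx2, an intestinal identity factor, and Keap1, the inhibitor of Nfe2l2, had 4 each. None of these genes had a strong peak. The drug exporter gene Abcb1a had a strong peak of 106.9 normalized tags at 27.9-fold, and Cbr3, a carbonyl reductase gene, had 1 of 65.5 at 6.58-fold. The xenobiotic receptor genes Nr1i2 and Nr1i3 had none, and Ahr had 1 of 9.95. Of the relatives that the symbol rule left out, Ugt8a had 1 peak of 13.6, Gstcd 1 of 14.1 and Gstz1 2 with a tallest of 39.8 normalized tags.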

How the data were processed

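One ChIP library against H3K9me3 and 1 control library were made from sorted intestinal stem cells, and the ChIP library's peak list was used. GRCm38 and mm10 are named as builds, and HOMER 4.10.1 and Bowtie2 2.2.8 as tools, per the submitters' processing notes. Which options the peak caller had was not stated there. The authors' normalized tag count, control tags and scaled ChIP tags are coverage signals per the file headers, the deposited fold over control is a ratio, the deposited score was used to rank peaks, and the deposited p-value of each peak had a highest value of 8.32e-05. Positions and widths are in bp.

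Tags were recovered from low normalized values, spaced by 0.524 per 0.5 tag. All values below 30 were whole steps within a tolerance of 0.1. Control tags were set beside ChIP tags scaled by 0.684. Gene spans came from the RefSeq table of GRCm38.p6, and starts and strand from its promoter table, which matched 70 of 82 members. Members and lists were chosen with earlier results of these data known. Every member with a peak was to be named, with 6 other detoxification genes with most peaks, those with a strong peak, and genes at shared peaks. Of these, 1 gene is not reported here. Nr1i2, Nr1i3, Ahr, Gstp1's promoter, the chromosome 5 stretch and the densities between windows were chosen after their values were seen. The overlap search was tested on simulated data. Peaks were called on 1 library, so replicates could not be compared. Alternatives were peaks scoring at or above the median, a fold of 8 or more, at most 10 control tags, other windows, overlap rules, cluster gaps and strong thresholds. Python 3.11.15 was used.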

Additional observations from a re-analysis of the deposited data

How the results depend on the processing

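No paired analysis was possible because each group has 1 library and no test was made. The marked share of members lay below that of all genes under each of the 8 other settings of peak set, window, overlap and assignment, from 25.6% beside 47.3% (gene span alone) to 52.4% beside 63.7% (gene plus 10 kb). Marked members numbered 22 to 43 under the 7 settings apart from the gene span alone, which gave 21. They numbered 8 of 26 with the first member by position of each cluster or lone gene. Distinct peaks numbered 19 for the gene span alone and 20 for peaks scoring at or above the median. Members with a strong peak numbered 2 with a fold of at least 8 and 2 with the nearest coding gene, where the Ugt1a complex no longer adds its genes, 16 with gene plus 10 kb and 1 at the top 5%. The strong share lay above that of all genes under 6 of the 8 settings that keep the top 10%. It also did at the top 20% (15.9% beside 14.5%). In each of these, most members with a strong peak were Ugt1a genes, which overlap one another. Outside Ugt1a, 2 of 73 members had a strong peak in the main setting (2.74%, all genes 6.64%). There were 7 with gene plus 10 kb, 5 at the top 20% and at most 2 in the others. With all members, the strong share lay below that of all genes at a fold of at least 8 (2.44% beside 5.01%). It was also lower with the nearest gene (2.44% beside 5.40%) and at the top 5% (1.22% beside 3.31%). Members with a peak over a promoter numbered 1 among peaks scoring at or above the median. Wider windows take in more peaks and stricter peak sets fewer, and other causes of these shifts were not tested. Joining members within 50 or 250 kb gave 38 or 22 loci. Marked genes among the other detoxification genes ranged from 22 to 37. The lowest peak called held 9 tags, so a gene without a peak may carry the mark below that depth.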
